A study of Mus musculus with 90 samples.

Results

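A fresh dose of IFNγ was given to cells of the mouse melanoma line YUMM2.1 that had already been kept in IFNγ for 2 weeks, and the genes that moved within 2 h were identified. The members are the 6 libraries whose labels give the line, the 2 weeks and the 2 times: 3 libraries taken at 0 h and 3 taken 2 h after the rechallenge, of 90 samples in the series. Of 9589 genes tested in YUMM2.1, 41 were called between these groups, which is 0.428% of the genes tested. A gene is called here where its adjusted p (Benjamini-Hochberg over all genes tested, edgeR's quasi-likelihood test) was under 0.05.

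The YUMM2.1 libraries form 15 groups of 3. Chronically exposed cells were grown with 50 IU/mL IFNγ for 1, 2 or 3 weeks and taken at 0, 2 or 24 h after fresh IFNγ. Control cells of the same weeks were grown without IFNγ (0 IU/mL) and taken at 0 h. The study names bovine serum albumin as the control in its other chronic IFNγ treatments, but does not name it for this time course. Naive cells, with no earlier exposure, were taken at 0 h without IFNγ and at 2 or 24 h of their first IFNγ. The 2 h libraries were set against 0 h libraries, and the labels give no YUMM2.1 group taken 2 h after vehicle alone. Effects of IFNγ and of the handling at dosing therefore cannot be told apart. The labels describe triplicate experiments on 1 cell line. The study states in general terms that its replicates were independent and biological, but how the libraries of these groups were cultured is not given in the sources used here. The p-values measure the spread between libraries within groups, estimated over all 45 YUMM2.1 libraries and not over the 6 compared ones alone.

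IFNγ binds a receptor made of Ifngr1 and Ifngr2, which activates the kinases Jak1 and Jak2. A first set of genes is switched on through gamma-activated sites (GAS) in their promoters, among them Irf1, whose product binds interferon-stimulated response elements (ISRE) and extends the programme to GTPases of the GBP and IRG families, antigen presentation and chemokines. In tumour cells the same pathway raises Cd274, the gene of the checkpoint ligand PD-L1.

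The promoter stretches of 6 called genes are shown as examples of the motifs and kinds of gene among the calls. Irf1 is a first-wave target of IFNγ, and Gbp7 and Gbp2 are GBP genes with and without a GAS match. Cxcl10 and Cd274 encode the chemokine and the checkpoint ligand that rose most. Plaur, the urokinase receptor gene, rose after chronic exposure and was not called in naive cells. Each stretch is the 250 bases before the RefSeq start site in build GRCm38.p6 (mm10), written 5′ to 3′ on the gene's strand. Capitals mark matches on either strand to the GAS motif TTCNNNGAA, the ISRE core GAAANNGAA or the AP-1 motif TGANTCA.
Irf1, chr11:53769764-53770013, plus strand: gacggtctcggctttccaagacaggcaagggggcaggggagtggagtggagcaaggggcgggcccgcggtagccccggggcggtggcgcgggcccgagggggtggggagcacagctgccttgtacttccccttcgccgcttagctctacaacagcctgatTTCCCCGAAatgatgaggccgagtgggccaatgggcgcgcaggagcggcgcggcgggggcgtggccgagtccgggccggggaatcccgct
Gbp7, chr3:142530086-142530335, plus strand: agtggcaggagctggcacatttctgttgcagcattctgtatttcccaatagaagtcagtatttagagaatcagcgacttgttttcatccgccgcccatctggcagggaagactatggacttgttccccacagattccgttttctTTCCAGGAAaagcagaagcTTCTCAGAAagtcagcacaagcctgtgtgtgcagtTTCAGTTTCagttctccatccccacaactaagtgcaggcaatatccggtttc
Gbp2, chr3:142620413-142620662, plus strand: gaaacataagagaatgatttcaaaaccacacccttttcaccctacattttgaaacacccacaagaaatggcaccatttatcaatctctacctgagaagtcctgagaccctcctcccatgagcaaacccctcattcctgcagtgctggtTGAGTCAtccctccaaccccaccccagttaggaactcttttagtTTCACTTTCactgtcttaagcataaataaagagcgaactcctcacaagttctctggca
Cxcl10, chr5:92348890-92349139, minus strand: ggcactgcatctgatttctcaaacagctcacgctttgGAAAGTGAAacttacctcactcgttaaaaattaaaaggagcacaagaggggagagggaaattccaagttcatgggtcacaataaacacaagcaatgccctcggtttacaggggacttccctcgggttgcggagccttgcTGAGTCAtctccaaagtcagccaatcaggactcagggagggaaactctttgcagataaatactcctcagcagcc
Cd274, chr19:29367188-29367437, plus strand: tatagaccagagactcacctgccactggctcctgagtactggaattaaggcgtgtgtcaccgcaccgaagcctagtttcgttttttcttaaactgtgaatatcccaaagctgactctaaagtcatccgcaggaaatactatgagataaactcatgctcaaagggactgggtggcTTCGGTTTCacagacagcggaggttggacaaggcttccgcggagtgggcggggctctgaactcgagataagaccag
Plaur, chr7:24462233-24462482, plus strand: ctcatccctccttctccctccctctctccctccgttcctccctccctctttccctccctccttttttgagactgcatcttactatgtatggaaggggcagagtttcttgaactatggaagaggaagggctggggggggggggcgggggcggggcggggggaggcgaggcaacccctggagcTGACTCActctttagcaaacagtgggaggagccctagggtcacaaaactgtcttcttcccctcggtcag
The Irf1 stretch holds 1 GAS match and no ISRE core, and Irf1 has a second, downstream RefSeq start whose window holds none of the 3 motifs. The Gbp7 stretch holds 2 GAS matches and 1 ISRE core. The Gbp2 and Cxcl10 stretches each hold 1 ISRE core and 1 AP-1 match, and Cd274 holds 1 ISRE core. The Plaur stretch holds 1 AP-1 match only.

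Total counts in the 6 libraries were 1558641, 1093299 and 2140588 at 0 h and 2318631, 894219 and 1128834 at 2 h, so genes of low CPM (counts scaled to a common library total) rest on a few counts per library. The mitochondrial share of counts was 6.09% to 7.08% at 0 h and 6.54% to 7.62% at 2 h, and these ranges overlap. Of 13 melanocyte lineage markers, Sox10 (26 to 51 counts), Pax3 and S100b were counted in all 6 libraries, whereas the pigment genes Tyrp1 and Mlana were at 0 and Pmel, Dct and Tyr had at most 2 counts. Of 11 leukocyte markers none passed the filter on low counts and Lyz2, the highest, reached 6 counts. Of 10 endothelial and fibroblast markers, Pecam1 (288 to 331 CPM) and the collagen gene Col1a2 (7.36 to 23.4 CPM) were counted in all 6 libraries, while Cdh5, Kdr, Col1a1, Dcn and Lum were at 0.

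Between 0 h and 2 h of fresh IFNγ, 40 genes rose and 1 fell, and the 40 that rose are 0.417% of the genes tested. The rises ran from 1.47-fold to 6.55-fold with a median of 2.77-fold, and 33 of the 40 reached 2-fold. In all 40 the lowest library at 2 h was above the highest library at 0 h, a pattern that 6.50% of all genes tested showed in the same direction. The median log2 fold change of all genes tested was -0.000514, a value that the scaling of the libraries holds near 0. Gene by gene, 563 genes had an unadjusted p under 0.05. The counts come from bulk cultures, in which more responding cells and more RNA per cell cannot be told apart.

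Irf1 (ENSMUSG00000018899.16, chr11:53770014-53778374, plus strand), the transcription factor that carries the second wave of the response, gave the smallest adjusted p. Its level was 50.9, 58.4 and 42.6 CPM in the 3 libraries at 0 h and 182, 195 and 182 CPM at 2 h. The groups did not overlap, and the 2-week control libraries lay lower still, at 11.3, 21.5 and 8.59 CPM. The log2 fold change was 1.90 ± 0.16 (SE, n = 3 against 3; adjusted p = 4.37e-11, edgeR). Of the other 4 factors of the IRF list that were tested, Irf2, Irf9 and Batf2 had fitted log2 changes of 0.64, 0.40 and 2.76, and none of the 4 was called. Batf2, an AP-1 family factor that partners Irf1, went from 1.31, 0.899 and 1.94 CPM to 9.66, 11.5 and 10.2 CPM with an adjusted p of 0.0611 (edgeR).

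**Figure D1:**
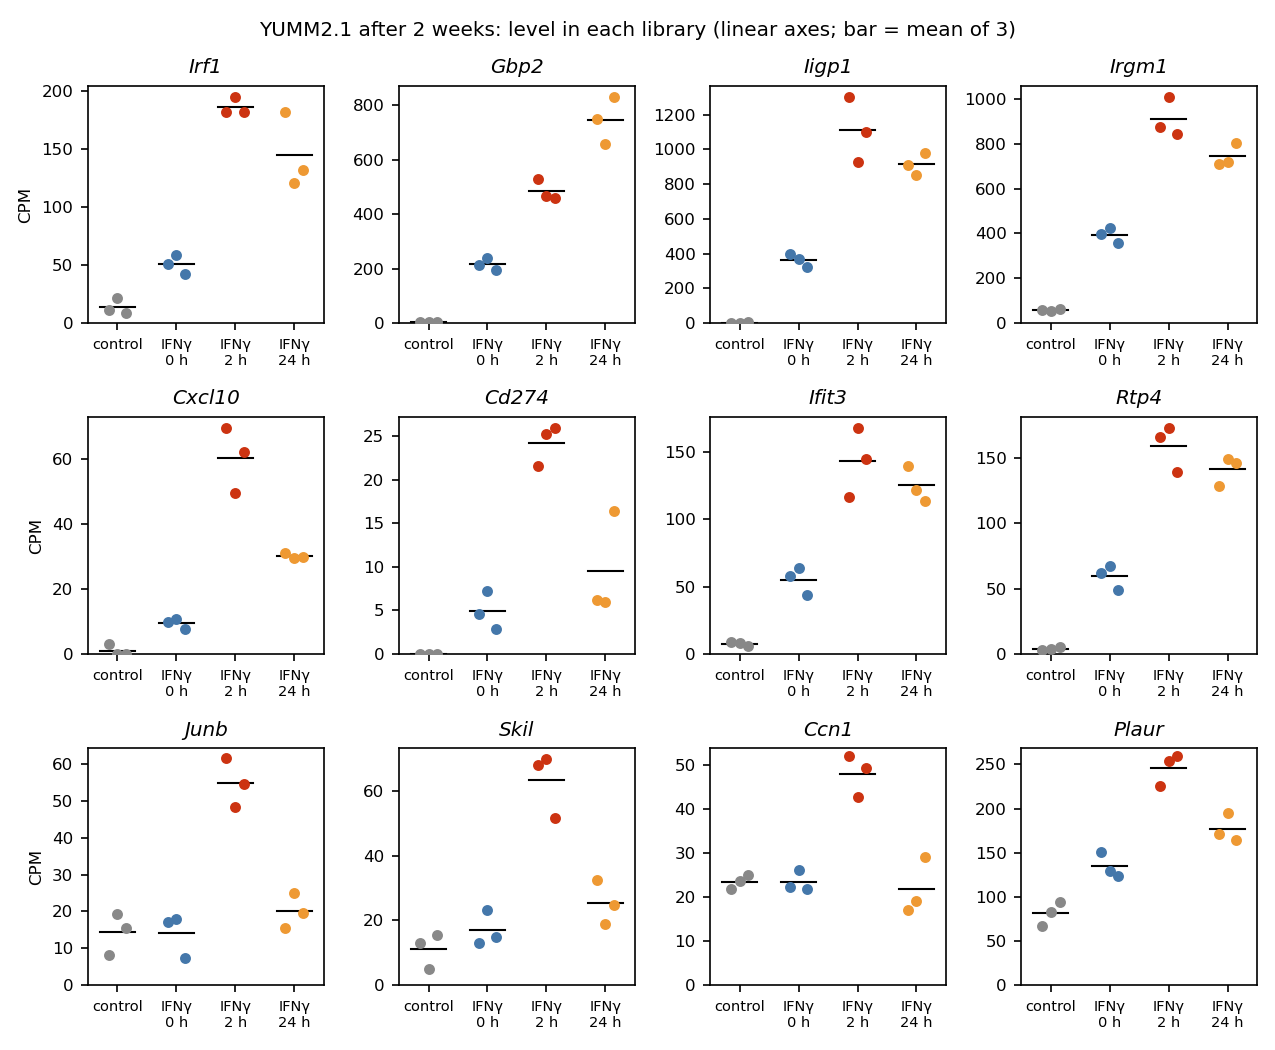
Level in CPM (linear vertical axes) of 12 genes in each of the 3 libraries of the 2-week control group, of cells kept 2 weeks in IFNγ at 0 h, and of the same at 2 h and 24 h of rechallenge; bars are means. Interferon targets start above the control and rise further at 2 h, whereas the 0 h libraries of Junb, Skil and Ccn1 overlap the control libraries, rise at 2 h and are overlapped by the 24 h libraries.

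The guanylate-binding proteins, GTPases that attack the vacuoles of intracellular pathogens, rose at 4 of 9 tested members (Gbp2, Gbp4, Gbp6 and Gbp7). All 9 were fitted above 0 with a median log2 change of 1.18. For this and the list counts that follow, the share of all genes tested that rose was 0.417%. Gbp2 (ENSMUSG00000028270.12, chr3:142620602-142638008) stood at 214, 238 and 194 CPM before rechallenge and at 527, 466 and 459 CPM after it. The 2 h libraries all held more than the 0 h libraries, and the change was 2.26-fold (log2 1.18 ± 0.13; adjusted p = 7.02e-09, edgeR). Gbp7 (chr3:142530342-142550149) went from 122, 137 and 103 CPM to 304, 275 and 333 CPM. Gbp4 went from 162, 217 and 111 CPM to 364, 569 and 504 CPM, and Gbp6 from 72.5, 98 and 61.5 CPM to 183, 262 and 228 CPM. The Gbp4 locus overlaps Gbp8 and Gbp9 and the Gbp6 locus overlaps Gm43302 on the same strand, so counts at these pairs are uncertain between neighbours. Gm43302 itself passed (log2 1.73 ± 0.42, adjusted p = 0.0427, edgeR) but lost its call in 9 of 12 alternatives. Gbp3 lay beside this group without being called (77.7, 75.5 and 65.4 CPM at 0 h, 121, 84 and 93.6 CPM at 2 h).

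The immunity-related GTPases, a second family that acts on pathogen vacuoles, rose at 5 of 8 tested members, and all 8 were fitted above 0 with a median log2 change of 1.41. Iigp1, the most abundant called member at 2 h, went from 400, 371 and 322 CPM to 1300, 929 and 1100 CPM, which is 3.05-fold (log2 1.61 ± 0.15; adjusted p = 2.8e-10, edgeR). The 2-week control libraries held 2.43, 0 and 6.01 CPM of it. Irgm1 (chr11:48861968-48871683), a regulator of the family, went from 398, 426 and 358 CPM to 873, 1010 and 843 CPM. Igtp went from 278, 289 and 236 CPM to 755, 717 and 721 CPM, Irgm2 from 61.4, 57.5 and 51.4 CPM to 158, 139 and 137 CPM, and Ifi47 from 103, 92.6 and 84.3 CPM to 291, 247 and 258 CPM. Within each of these genes the 3 libraries of a group lay close together compared with the step between groups. Tgtp1 and Tgtp2, near-copies of each other, had higher CPM than Iigp1 at 2 h and were not called. Tgtp2 went from 1310, 1360 and 1050 CPM to 2390, 2720 and 2500 CPM (log2 1.04 ± 0.44; adjusted p = 0.708, edgeR), and Tgtp1 from 603, 666 and 607 CPM to 2280, 2130 and 2240 CPM (log2 1.83 ± 0.56; adjusted p = 0.224, edgeR). Neither gene's groups overlapped, and how reads divide between the near-copies is uncertain. Igtp and Irgm2 overlap on the same strand, as do Ifi47 and Olfr56, and the split of their counts is uncertain.

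Further GTPase genes at the same loci behaved alike, and they were named for their values rather than from a list. Gm12250 (chr11:58187739-58189012) had the second largest rise, from 22.2, 14.4 and 15.5 CPM to 112, 72.5 and 88.9 CPM (5.29-fold). Gm4841, Gm4951 and F830016B08Rik, near-copies beside Iigp1, rose by log2 2.04, 1.48 and 1.64, and Gm12185 by 1.60. The Gm4951 call was lost in 2 of 12 alternatives. Because these are close paralogues, reads may be shared among them.

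Cxcl10 (ENSMUSG00000034855.13, chr5:92346638-92348889, minus strand), which draws T cells through Cxcr3, rose most of all called genes. It had 9.8, 10.8 and 7.75 CPM at 0 h and 69.5, 49.5 and 62.1 CPM at 2 h. The lowest rechallenged library thus held several times the level of the highest library at 0 h, and the change was 6.55-fold (log2 2.71 ± 0.33; adjusted p = 1.59e-07, edgeR). It was the only one of 6 tested chemokine and Csf1 genes to be called. Cxcl9, a second ligand of the same receptor, had 0 counts in all 6 libraries. Ccl5 was at 16.3, 11.7 and 16.5 CPM against 13.3, 16.1 and 13 CPM.

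Cd274 (ENSMUSG00000016496.7, chr19:29367455-29388095), the gene of PD-L1, had 4.57, 7.19 and 2.91 CPM at 0 h and 21.6, 25.3 and 25.9 CPM at 2 h. The groups did not overlap and the 2-week control libraries were all at 0. The change was 5.16-fold (log2 2.37 ± 0.44; adjusted p = 0.00131, edgeR). Without replicate 3 of the 0 h group its adjusted p was 0.0534, and over 12 alternatives it ran from 0.000156 to 0.0534. Cd274 was the only called gene of 5 tested in the list of checkpoint and lymphocyte ligands. Il15ra, the receptor chain that presents IL-15 to lymphocytes, went from 3.27, 3.6 and 4.85 CPM to 17.9, 12.7 and 14.8 CPM, and its call was lost when any of 5 of the 6 libraries was left out (adjusted p = 0.034, edgeR, and up to 0.239 over the alternatives).

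Of 19 tested antiviral effectors and sensors, 3 rose: Ifit3, whose product joins an RNA-binding complex, its near-copy Ifit3b, and Rtp4, an interferon-induced chaperone of membrane receptors. Ifit3 went from 58.1, 63.8 and 44.1 CPM to 117, 168 and 145 CPM (log2 1.37 ± 0.19), and Rtp4 from 62.1, 67.4 and 48.9 CPM to 166, 173 and 139 CPM (log2 1.44 ± 0.17). Ifit3b had 11.8, 3.6 and 5.33 CPM at 0 h and shares sequence with Ifit3, so its own change is uncertain, and its call (adjusted p = 0.039, edgeR) was lost in 7 of 12 alternatives, with adjusted p up to 0.315. The remaining members of this list were not called, with 18 of the 19 fitted above 0 and a median log2 change of 0.61.

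Other arms of the interferon programme were not called at 2 h. None of 18 tested MHC class I presentation genes passed, though 17 were fitted above 0 with a median log2 change of 0.21. B2m, the light chain of MHC class I, was at 2760, 2040 and 2880 CPM at 0 h and at 3370, 2290 and 2470 CPM at 2 h, and the groups overlapped. Its standing level was already above the 2-week control (802, 722 and 798 CPM). Nlrc5, the class I transactivator, overlapped as well (13.7, 7.19 and 5.33 CPM against 10.1, 16.1 and 17.6 CPM). Of the list of interferon-induced PARP genes with Dtx3l, all 6 tested members were fitted above 0 with a median log2 change of 0.87 and none was called. Parp14, an ADP-ribosyltransferase, went from 6.53, 8.09 and 8.24 CPM to 14.7, 18.4 and 19.5 CPM, which is 2.25-fold without overlap. Its counts were low and its adjusted p was 0.399 (edgeR). At 2 h of rechallenge Parp14 was called higher after 1 week (means 5.32 to 22.9 CPM) and after 3 weeks (7.84 to 42.5 CPM). Dtx3l was called at both of these times as well, and Parp9 at 1 week.

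The receptor, JAK and STAT genes showed no call among 9 tested. Ifngr1, the ligand-binding receptor chain, was at 13.1, 31.5 and 20.8 CPM against 23.9, 16.1 and 25 CPM, and its groups overlapped. Socs1, the main feedback inhibitor of JAK signalling, had 5.88, 9.89 and 8.72 CPM at 0 h and 10.6, 16.1 and 12 CPM at 2 h (log2 0.63 ± 0.41; adjusted p = 0.97, edgeR), and none of 9 tested feedback inhibitors passed. At these depths a change of Socs1 of this size was not detectable.

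Over all interferon lists, 15 of 98 tested genes were called higher and 0 lower, with a median log2 change of 0.46. Among all genes tested, 0.417% were called higher and the median log2 change was -0.000514. The lists are described by their counts, and their members were chosen with results of these data known. Over the other lists, 5 of 100 tested genes were called, all higher, with a median of 0.10. These 5 were Junb, Ccn1 and Klf10 of 17 tested immediate-early genes, and Skil and Id3 of 19 tested genes of TGFβ signalling.

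Junb (ENSMUSG00000052837.6, chr8:84974484-84978718), a subunit of the AP-1 transcription factor, had 17, 18 and 7.27 CPM at 0 h and 61.7, 48.3 and 54.7 CPM at 2 h. The 2 h libraries lay clear of the 0 h libraries and of the 2-week control (8.09, 19.4 and 15.5 CPM), and the change was 4.08-fold (log2 2.03 ± 0.31; adjusted p = 3.9e-05, edgeR). Skil (chr3:31095058-31122577), which encodes SnoN, a repressor of SMAD-dependent transcription, went from 13.1, 23.4 and 15 CPM to 68.1, 70.2 and 51.9 CPM (log2 1.92 ± 0.27; adjusted p = 3.2e-06, edgeR). Ccn1 (chr3:145646976-145649981), a matricellular protein gene, went from 22.2, 26.1 and 21.8 CPM to 52, 42.6 and 49.1 CPM. Id3, an inhibitor of helix-loop-helix factors, went from 35.9, 32.4 and 35.9 CPM to 78.7, 64.5 and 77.8 CPM. Klf10, an early TGFβ-induced repressor, had the smallest called rise, from 115, 111 and 119 CPM to 190, 165 and 150 CPM. The Id3 call was lost without any 1 of 3 libraries (2 h replicate 1, 0 h replicate 2 or 0 h replicate 3) with adjusted p up to 0.101, and the Klf10 call without 2 h replicate 1, 0 h replicate 1 or 0 h replicate 2, with no filter on low counts and with only the compared groups fitted, with adjusted p up to 0.286.

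Other immediate-early genes gave no such step. Fos had 2.61, 0 and 1.94 CPM at 0 h and 2.76, 4.6 and 8.34 CPM at 2 h, too low to be tested, and Atf3 was at most 2.3 CPM. Egr1 had 4.57, 2.7 and 4.85 CPM against 5.52, 6.91 and 8.34 CPM (adjusted p = 1, edgeR). Jun was at 25.5, 27.9 and 22.8 CPM against 29, 42.6 and 18.5 CPM. Nfkbia, the feedback inhibitor of NF-kB, was at 20.9, 19.8 and 22.8 CPM against 24.8, 12.7 and 16.7 CPM, and none of 10 tested NF-kB genes, 13 EGFR ligand and MAPK feedback genes, 12 cytoskeletal SRF and YAP targets, 10 early stress genes, 5 genes of the LIF and IL-6 family or 14 constitutive proteasome subunits was called.

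The other called genes, also named for their values, belong to no list. Plaur (chr7:24462484-24475968) went from 151, 129 and 123 CPM to 225, 254 and 259 CPM (log2 0.87 ± 0.15; adjusted p = 0.000266, edgeR), with the 2-week control at 67.1, 82.8 and 93.7 CPM. Zbtb38, a zinc finger protein that binds methylated DNA, went from 49, 44 and 58.6 CPM to 94.8, 120 and 94.5 CPM. Crem, a cAMP-responsive transcription factor, went from 7.84, 4.49 and 6.78 CPM to 21.6, 25.3 and 15.7 CPM. Ifi211 and Mndal are overlapping genes of the interferon-induced HIN-200 family, with log2 changes of 0.87 and 1.10. Hk2, the glycolytic hexokinase, rose by log2 1.13, Nppb, a natriuretic peptide gene, by 1.02, the stress-induced Nupr1 by 0.95, the serine protease gene Prss23 by 1.02, the LIM protein gene Pdlim5 by 0.92, Cttnbp2nl by 0.90, Tmem140 by 2.01 and Kctd11 by 1.52. Of the genes in this paragraph, Plaur and Zbtb38 kept their call in all 12 alternatives that used the same threshold, and each of the others lost it in at least 2. The single gene that fell was Rassf4, a Ras-association domain protein gene, from 210, 239 and 215 CPM to 123, 139 and 197 CPM (log2 -0.54 ± 0.13; adjusted p = 0.0363, edgeR), and it lost its call in 7 of the 12 alternatives.

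**Figure D2:**
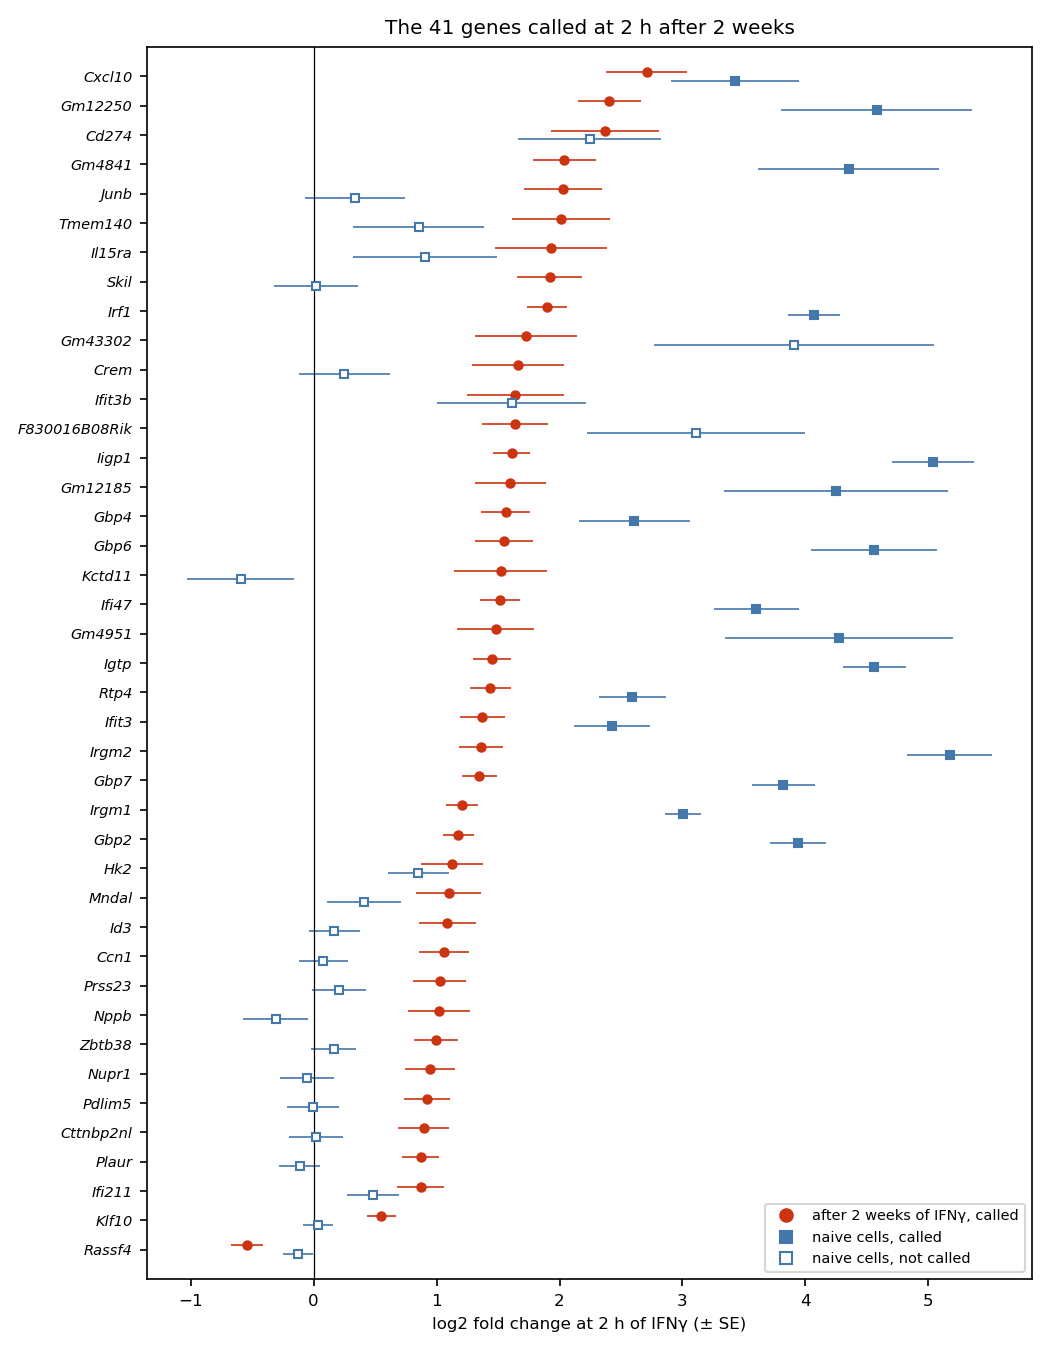
Log2 fold change at 2 h of IFNγ (horizontal axis, ± SE) of the 41 genes called after 2 weeks of exposure (red circles), with the 2 h change of the same genes in naive cells (blue squares, filled where called). The 17 genes called in both have larger log2 changes in naive cells, while 23 that rose after 2 weeks were not called in naive cells.

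The first dose in naive cells and the rechallenge after 2 weeks share no libraries. In naive cells 23 genes were called at 2 h (0.240% of the genes tested), all higher, and 17 of them were among the 40 here. That is 42.5% of the 40 and 73.9% of the 23, and 35 of the 40 were fitted above 0 in naive cells. These 17 were Irf1, Cxcl10, Rtp4, Ifit3, the 4 called GBPs, the 5 called IRGs and Gm12250, Gm12185, Gm4841 and Gm4951. Their median log2 change was 4.07 in naive cells and 1.52 after 2 weeks.

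The difference between both responses was tested as an interaction term, and 12 genes were called (0.125% of the genes tested), 11 with a smaller and 1 with a larger log2 change after 2 weeks. Among the 11 were Irgm2, Iigp1, Igtp, Irgm1 and Ifi47 of the IRGs, Gbp2, Gbp3, Gbp6 and Gbp7 of the GBPs, and Irf1, 10 genes in all. Irf1 rose by log2 4.07 in naive cells and by 1.90 after 2 weeks, a difference of -2.17 ± 0.28 (adjusted p = 1.32e-06, edgeR). Iigp1 had a difference of -3.42 ± 0.41 (adjusted p = 1.74e-07, edgeR), but its naive 0 h libraries held only 3, 4 and 2 counts, and those of Gbp3, Gbp6 and Irgm2 held 0 to 4, so the size of these log2 differences rests on a few counts. The Gbp6 difference lost its call without 2 h replicate 1, without 0 h replicate 2 and with robust dispersion (adjusted p up to 0.0849).

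The smaller log2 changes went with higher levels at both ends. In all 10 named genes each 2 h library after 2 weeks was above every 2 h library of naive cells, and in 7 of the 10 this held already for the 0 h libraries. The share of all genes tested with these patterns was not computed. Iigp1 averaged 2.6 CPM in naive cells and 73.7 CPM after their first 2 h, against 364 and 1110 CPM before and after the rechallenge. Its increase in CPM was 71.1 ± 6.47 (SE) in naive cells and 744 ± 110 after 2 weeks. Gbp2 increased by 75.9 ± 4.56 CPM in naive cells and by 269 ± 25 CPM after 2 weeks. Among the 10, the increase in CPM was larger after 2 weeks in 9 and smaller in Irf1. One of the 9 was Gbp3, at 13.9 ± 2.96 CPM in naive cells and 26.6 ± 11.7 CPM after 2 weeks, a difference about as large as these errors. Irf1 increased by 143 ± 16.4 CPM in naive cells and by 136 ± 6.1 CPM after 2 weeks, a difference within these errors, and reached 177, 121 and 157 CPM in naive cells against 182, 195 and 182 CPM. The increments were compared as a description chosen after seeing the data and were not tested.

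**Figure D3:**
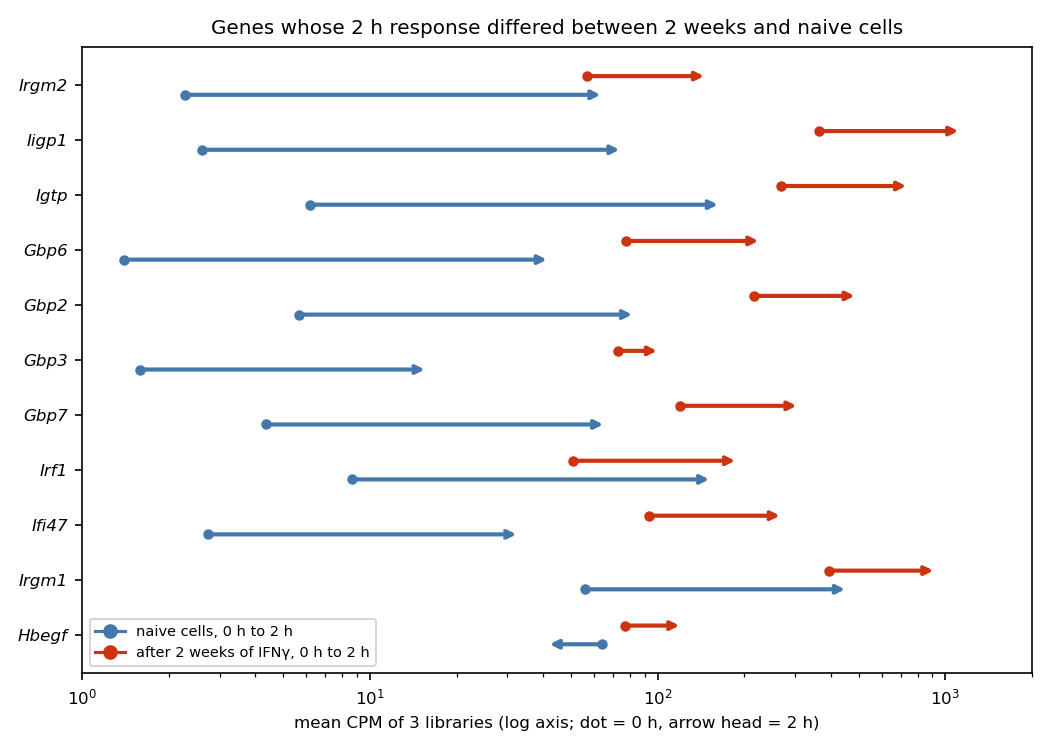
Mean CPM of 3 libraries (log horizontal axis) at 0 h (dot) and 2 h (arrow head) for 11 genes whose log2 response differed between 2 weeks of exposure (red) and naive cells (blue). Except for Hbegf, the red arrows are shorter on the log axis and both start and end further right than the blue ones; Iigp1 runs from 2.6 to 73.7 CPM in naive cells and from 364 to 1110 CPM after 2 weeks.

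The 1 gene with a larger log2 change after 2 weeks was Hbegf, a ligand of the EGF receptor, which is named because it was the only one. It went from 68.2, 51.3 and 72.1 CPM to 53.4, 37.3 and 35.6 CPM in naive cells and from 76.4, 72.8 and 81.9 CPM to 150, 112 and 94.5 CPM after 2 weeks. The difference was 1.24 ± 0.24 (adjusted p = 0.00555, edgeR), though neither response was called by itself (adjusted p = 0.383 and 0.0569, edgeR). The rise after 2 weeks passed in 3 of 12 alternatives, with adjusted p down to 0.0142. At 2 h of rechallenge Hbegf was called higher after 1 week (means 66.8 to 117 CPM) and after 3 weeks (62.6 to 127 CPM). Without 2 h replicate 1 and with only the compared groups fitted the call of the difference was lost, and its adjusted p ran from 0.00117 to 0.128 over 12 alternatives.

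The 23 genes that rose after 2 weeks and were not called in naive cells had a median naive log2 change of 0.21. Junb was at 5.46, 7.33 and 9.01 CPM in naive cells and at 11.1, 7.31 and 8.16 CPM after their first 2 h. Skil was at 11.5, 12.2 and 5.79 CPM against 9.34, 8.05 and 11.9 CPM, and Plaur at 70.4, 81.8 and 66.9 CPM against 60, 64.4 and 77.2 CPM. All 3 genes overlapped between the groups in naive cells and were separate after 2 weeks. None of the 23 passed the test of the difference between responses, so they are not shown to respond differently. The nearest were Plaur (difference 0.99 ± 0.23, adjusted p = 0.0537, edgeR) and Skil (1.90 ± 0.44, adjusted p = 0.0559, edgeR), followed by Kctd11 (2.11 ± 0.58, adjusted p = 0.312, edgeR). The difference of Plaur passed in 5 of 12 alternatives (adjusted p from 0.0103 to 0.224), that of Skil in 3 (0.0143 to 0.263) and that of Nppb in 1, with no filter on low counts (0.0248). Junb had a difference of 1.69 ± 0.53 with an adjusted p of 0.65 (edgeR). Cd274 is among the 23 as well, but it rose from 1.09, 2.44 and 1.93 CPM to 8.01, 8.05 and 8.9 CPM in naive cells (log2 2.25 ± 0.58, adjusted p = 0.132, edgeR), and its difference was 0.12 ± 1.11. F830016B08Rik and Gm43302 also had higher naive means at 2 h, from 0.364 to 5.06 CPM and from 1.63 to 13.9 CPM. Their fitted log2 changes were smaller after 2 weeks than in naive cells, with differences of -1.47 and -2.18.

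Rechallenge was also measured after 1 and 3 weeks, in libraries not used for the 2-week comparison. At 1 week 59 genes were called (0.615% of the genes tested), 48 higher, and 27 of the 40 were among those, which is 67.5% of the 40 and 56.2% of the 48. At 3 weeks 104 were called (1.08%), 84 higher, and 32 of the 40 were among those, 80% of the 40 and 38.1% of the 84. All 40 were fitted above 0 at both other times. The 17 genes called in naive cells were called at every exposure time. Of the 23 not called in naive cells, 10 were called at 1 week and 15 at 3 weeks; Junb, Skil, Ccn1, Cd274, Tmem140, Prss23, Zbtb38, Ifi211 and F830016B08Rik were called at both.

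No gene was called for a difference between the 2-week and the 1-week response (0% of the genes tested; 636 genes with an unadjusted p under 0.05) or between the 2-week and the 3-week response (0%; 625 genes), by edgeR. By fit, 1 of the 17 genes called in naive cells had a larger log2 change at 2 weeks than at 1 week (differences from -1.35 to 0.06). Against 3 weeks, 0 of the 17 did (-1.82 to -0.26). Of the other 23 genes, 16 had a larger fitted change at 2 weeks than at 1 week, and 14 than at 3 weeks. None of these differences was called by edgeR. DESeq2 called 3 and 5 genes for the 1-week and 3-week differences. For the 3-week difference these included Gbp2 (log2 -0.84), Igtp (-0.82) and Nab2 (-2.42), and for the 1-week difference Lgals7 (1.47), while Srp54b, called in both, Gm10275 and a Sept2 row had fitted log2 values beyond any readable fold. Junb reached 68.3, 69.2 and 99.9 CPM at 1 week and 40.2, 25.9 and 38.2 CPM at 3 weeks, on either side of the 2-week level. Iigp1 reached 711, 530 and 627 CPM at 1 week and 1250, 983 and 1300 CPM at 3 weeks. One library of the 3-week 0 h group had the lowest total of all, 274719 counts, and no gene was called in the 3-week difference without it either.

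**Figure D4:**
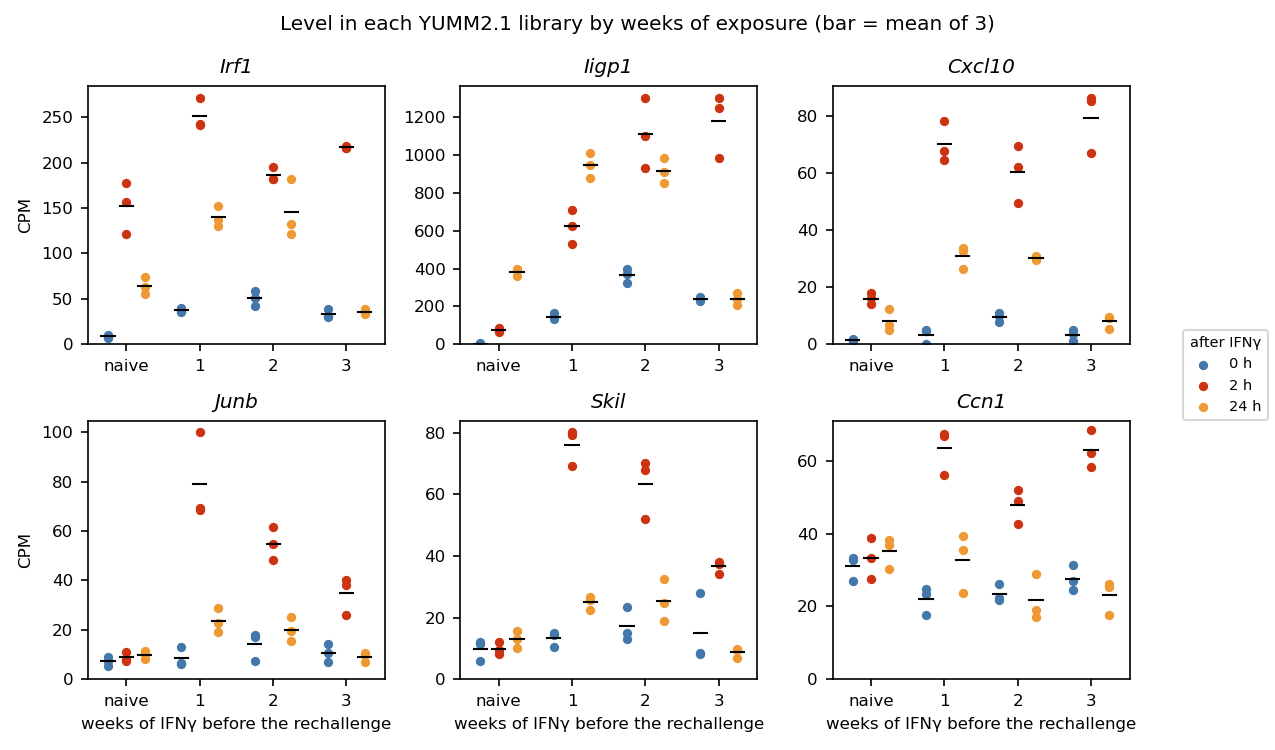
Level in CPM (vertical axes) of 6 genes in each YUMM2.1 library at 0, 2 and 24 h of IFNγ, by weeks of earlier exposure (horizontal axis; the naive 0 h group had no IFNγ); bars are means of 3 libraries. Junb, Skil and Ccn1 were called at 2 h at each exposure time and not in naive cells, and at 3 weeks the 24 h libraries overlap the 0 h libraries for every gene shown except Cxcl10.

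At 24 h of rechallenge, 9 genes differed from their 2 h level (0.0939% of the genes tested), 4 higher and 5 lower. This comparison uses the same 2 h libraries as the 2 h comparison. Of the 40 genes, Junb, Skil and Ccn1 had fallen, to 15.5, 25 and 19.5 CPM, 32.6, 19 and 24.7 CPM and 17.1, 19 and 29 CPM, which is by 1.46 ± 0.31, 1.34 ± 0.27 and 1.05 ± 0.21 on the log2 scale (adjusted p = 0.0296, 0.0115 and 0.0115, edgeR). In all 3 genes the 24 h libraries overlapped those at 0 h. Gbp2 was the only one of the 40 called higher at 24 h than at 2 h, at 749, 659 and 829 CPM (log2 0.62 ± 0.12, adjusted p = 0.0115, edgeR). The other 36 were not called for a change between 2 h and 24 h. Irf1 was at 182, 121 and 132 CPM and Iigp1 at 909, 851 and 982 CPM at 24 h. Cxcl10 had 31.1, 29.7 and 29.9 CPM, all below its 2 h libraries, with a log2 change of -1.02 ± 0.30 that was not called (adjusted p = 0.344, edgeR).

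The remaining 5 of the 9 genes were not called at 2 h and are named for their values. Zbp1, a sensor of Z-form nucleic acids, was at 54.2, 52.1 and 32.5 CPM at 0 h, at 62.1, 55.2 and 52.8 CPM at 2 h and at 127, 145 and 117 CPM at 24 h. Psmb10, an immunoproteasome subunit gene, was at 295, 324 and 276 CPM, 370, 328 and 283 CPM and 531, 545 and 506 CPM at the same times. Tnnt2, the cardiac troponin T gene, rose by log2 0.78 and the cytokine gene Il33 fell by 1.31 between 2 h and 24 h. Hbegf fell back to 52.8, 71.3 and 78.8 CPM.

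Before any rechallenge, the cells kept in IFNγ for 2 weeks differed from the 2-week control at 107 genes (1.12% of the genes tested), 86 higher and 21 lower. This comparison shares the 0 h libraries with the 2 h comparison, so the values are given side by side. The 17 genes called in naive cells all had raised standing levels, as did Cd274, Il15ra, Gm43302, F830016B08Rik and Plaur of the 23. Junb, Skil and Ccn1 had standing log2 differences of -0.06 ± 0.36, 0.55 ± 0.32 and -0.02 ± 0.22, none called.

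Promoter windows (250 bases before to 50 after the RefSeq start) were at hand for 29 of the 40 genes, and shares were taken over the 22 with exactly 1 window. The ISRE core was in 13 of these 22 windows (59.1%) against 7.34% of 5787 windows of tested genes, the GAS motif in 6 (27.3%) against 6.6%, and the AP-1 motif in 7 (31.8%) against 4.2%. The NF-kB motif was in 2 (9.09%) against 9.56%, and the SRF CArG box in 0 against 1.24%. GAS and ISRE core matches overlapped in 7 of the 5787 windows and in 0 of the 22. Among the 10 windows of genes also called in naive cells, 9 held the ISRE core, 5 a GAS match and 4 an AP-1 match, and among the 12 windows of the other genes 4 held the ISRE core, 1 a GAS match and 3 an AP-1 match. The windows of Ifi47, which was also called in naive cells, and of Junb, Ccn1, Id3, Nppb and Hk2, which were not, held none of the 5 motifs, nor did that of Rassf4, the gene that fell. The 22 windows are not all separate sequences, and close copies were counted as separate windows. Ifit3 and Ifit3b hold the same 3 ISRE core matches and the same AP-1 match. Igtp and Irgm2 share a nearly identical stretch with a GAS match and an ISRE core. A match is a stretch of letters and does not show that a factor bound there.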

How the data were processed

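RNA of the YUMM2.1 cultures was profiled by 3′ digital gene expression. The submitters' processing notes name Salmon 0.13.1 and build mm10, and the study's methods name tximport; how estimates became whole numbers is not given in the sources used here. The authors deposited 1 table of raw gene counts, whole numbers with no normalization. Ensembl identifiers were matched to symbols and positions of GENCODE M21 (GRCm38): 53668 of 53697 matched.

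Counts were filtered by edgeR's filterByExpr over the 15 YUMM2.1 groups (9589 genes kept), scaled by TMM and fitted together by the edgeR 4.0.16 quasi-likelihood test (R 4.3.3) with no covariate, so that all groups share the estimate of spread. CPM are counts scaled to a common TMM-adjusted total. Differences between responses were interaction contrasts. DESeq2 1.42.0, limma 3.58.1 and Python 3 with matplotlib served alternatives, helper functions and figures. On simulated counts for the 2 h comparison (9429 genes), 60% of genes changed by 1 on the log2 scale and 90% of those changed by 2 were recovered, with 8 false calls. Among genes above the median expression the shares were 86.4% and 100%. The simulation changed 100 genes at each size, more than the 41 called here, and took the spread from its trend with expression. Its shares may therefore not hold for the data.

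Genes were named by rule: called members of 23 gene lists, the 20 largest called changes in each direction without overlap of libraries, 14 genes named whatever their values, the 10 largest called differences from naive cells (5 each from 1 and 3 weeks), and genes called both at 2 h and between 2 h and 24 h; others are said to be named for their values. The members and lists were chosen with earlier results of these data known. Same-numbered 0 h and 2 h libraries correlated at 0.008, 0.067 and 0.014 in their deviations, and unlike-numbered ones from -0.098 to 0.099. The numbers were not taken to pair the libraries, though such weak correlations cannot show whether the cultures were paired. The study's methods dropped a YUMM2.1 library as an outlier without naming it. Every deposited YUMM2.1 library was kept here, so the fit may hold that library. The values of 1 named gene are not reported here. The alternatives were DESeq2, library totals, no filter, only the compared groups, a replicate block, each of the 6 libraries left out, a fold minimum and robust dispersion.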

Additional observations from a re-analysis of the deposited data

Results flagged for a closer look

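Each result here differs between 2 groups under the same contrast: the log2 fold change at 2 h of IFNγ after 2 weeks of exposure less that in naive cells, tested as an interaction term by edgeR over all genes. It was -3.81 for Irgm2, -3.42 for Iigp1, -3.11 for Igtp, -3.01 for Gbp6, -2.76 for Gbp2, -2.55 for Gbp3, -2.47 for Gbp7, -2.17 for Irf1, -2.08 for Ifi47 and -1.80 for Irgm1. In these 10 genes every 2 h library after 2 weeks lay above every 2 h library of naive cells. The share of all genes tested with this pattern was not computed. For Hbegf the difference was 1.24, with naive cells moving down (42.1 CPM at 2 h against 63.8 CPM at 0 h) and exposed cells moving up (119 against 77 CPM), and neither move was called by itself.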

How the results depend on the processing

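No call of the 2 h comparison reversed its direction under any of the 12 alternatives that kept the threshold, and 22 of its 41 genes kept their call in all 12. With an absolute log2 change of at least 1 also required, 33 of the 41 were called. The count of 41 was 81 with no filter on low counts and ran from 25 to 41 with 1 library left out; 25 was the count without 2 h replicate 1. The difference from naive cells (12) gave 34 with no filter, and 10 of its 12 genes kept their call in the 12 alternatives. The difference from 1 week (0) gave 3 with DESeq2 and 47 with no filter. The difference from 3 weeks (0) gave 5 with DESeq2, 1 with library totals (Gbp2) and 28 with no filter. The 24 h against 2 h comparison (9) gave 23 with DESeq2, 16 with library totals, 36 with no filter, 5 with a log2 change of at least 1, and 3 to 9 with 1 library left out: 4, 3 and 5 without 2 h replicates 1, 2 and 3. The lists outside the interferon programme gave 3 to 6 calls in the 2 h comparison with 1 library left out (3 without 2 h replicate 1 and without 0 h replicate 2), and in the difference from naive cells, where 1 gene was called, 2 with DESeq2, 0 with only the compared groups and 0 to 2 with 1 library left out. With no filter many more genes at very low counts enter the test, and the cause of the other moves was not tested. Leaving out the lowest-depth library of the 3-week 0 h group, an alternative chosen after seeing the data, left the 3-week difference at 0.

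With the replicate number as a block, the 2 h comparison called 44 genes, all 41 included, and the block changed no other count by over 1.5 times. The deviations of same-numbered libraries were hardly correlated, which does not exclude a pairing of the cultures. Whether the design paired them is not given in the sources used here. Each group had 3 libraries, and totals of the compared ones ran from 894219 to 2318631 counts. Low genes such as Parp14 and Socs1 did not pass at the size of change seen in them. Uncalled genes are not shown to be unchanged. On simulated data, where more genes changed than were called here, 60% of 2-fold changes were recovered.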
